A study of Homo sapiens with 16 samples.

Results

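The HOX gene clusters were read here as the 216 listed peaks, of 146596 in all 12 deposited lists, that overlapped one of 4 windows of the human build hg18. The windows were chr7:27090000-27230000 for HOXA, chr17:43950000-44170000 for HOXB, chr12:52600000-52750000 for HOXC and chr2:176640000-176780000 for HOXD. HOXA held 72 of the peaks, HOXB 58, HOXC 46 and HOXD 40. The windows were set by position and not by a measured value, but with earlier results of these data known. Together the windows span 38 named HOX genes.

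Peaks came from chromatin immunoprecipitation and sequencing (ChIP-seq) against 3 transcription factors (HNF4A, KLF5 and MYC), 2 boundary proteins (CTCF and RAD21) and histone H3 in LoVo, an established colon adenocarcinoma line, with 1 library for each target and phase. Early S-phase cells had 12 h in 2 mM thymidine, 8 h of release and a second 12 h block. M-phase cells had 12 h in thymidine and then 8 h in 200 ng/ml nocodazole, a drug that stops the mitotic spindle from forming. Cells were fixed with 1% formaldehyde, 5 µg of antibody was used, and the control was rabbit IgG for all targets except CTCF, whose control was goat IgG. All groups share the one cell line and the thymidine, and phase, drug and library cannot be told apart. Without replicates no test was possible, so shares carry exact 95% intervals and differences carry Newcombe 95% intervals, which cover counting error only.

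HOX genes encode homeodomain transcription factors that set positional identity along the body axis. Their order along a chromosome runs with the order in which they are used, from the low-numbered genes at one end to the highest-numbered at the other. CTCF, a zinc-finger protein, and cohesin, of which RAD21 is a subunit, are known to divide HOX clusters into separate chromatin domains. HNF4A is a nuclear receptor that directs gene expression in liver and gut epithelium. KLF5 is a zinc-finger protein of proliferating crypt cells, and MYC binds E-boxes and promotes growth. These 3 are called the factors below.

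Promoter sequences show which binding letters lie next to HOX genes, and are set against where each cluster had peaks. RefSeq promoters of GRCh38.p14 were matched by symbol for 20 of the 38 genes, giving 26 promoters of 250 bases before a start, of which 16 were of HOXA and 8 of HOXD. HOXA3 has several starts among them, so promoters of one gene are not independent. The MYC E-box CACGTG, searched on both strands, was in 3 of 16 HOXA promoters and 5 of 8 HOXD promoters, against 6.32% of all 34943 promoters in the table. The KLF5 letters CCACCC, on both strands, were in 4 of the 26 (31.3% of all promoters). The HNF4A letters CAAAGTCC were in 1 (1.02%), and a core of the CTCF motif, CCA, AG and GGC with 2 free bases between each, in 1 (2.02%). None of the 4 motifs contains another. The 4 lines below show the upstream HOXA10 promoter with the CTCF letters, the HOXA9 and HOXD11 promoters with an E-box, and the HOXD13 promoter with an E-box and the reverse complement of CCACCC, with matches in capitals.
HOXA10: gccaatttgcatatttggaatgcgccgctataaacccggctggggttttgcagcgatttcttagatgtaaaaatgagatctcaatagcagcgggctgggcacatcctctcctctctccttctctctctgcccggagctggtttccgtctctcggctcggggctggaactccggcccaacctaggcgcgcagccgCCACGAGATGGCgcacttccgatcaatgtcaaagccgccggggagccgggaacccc
HOXA9: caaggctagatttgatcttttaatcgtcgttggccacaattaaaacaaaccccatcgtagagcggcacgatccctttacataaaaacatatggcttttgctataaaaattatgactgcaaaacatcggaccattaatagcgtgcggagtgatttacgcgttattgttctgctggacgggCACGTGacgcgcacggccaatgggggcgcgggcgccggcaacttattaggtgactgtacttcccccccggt
HOXD13: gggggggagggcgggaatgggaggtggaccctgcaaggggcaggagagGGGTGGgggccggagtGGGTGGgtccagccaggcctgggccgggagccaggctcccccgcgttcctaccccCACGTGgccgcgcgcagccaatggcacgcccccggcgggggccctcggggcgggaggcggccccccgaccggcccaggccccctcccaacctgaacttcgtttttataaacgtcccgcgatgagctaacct
HOXD11: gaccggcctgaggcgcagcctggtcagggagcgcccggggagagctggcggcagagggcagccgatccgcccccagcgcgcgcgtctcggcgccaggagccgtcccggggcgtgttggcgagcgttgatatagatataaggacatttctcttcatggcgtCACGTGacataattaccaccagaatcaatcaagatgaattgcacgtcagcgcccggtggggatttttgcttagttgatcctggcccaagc
On GRCh38.p14 they lie at chr7:27179862-27180111, chr7:27165538-27165787, chr2:176092471-176092720 and chr2:176107030-176107279, on the minus strand for HOXA and the plus strand for HOXD. A match is a description of letters, and since the peaks are on hg18, no peak was placed on a promoter or assigned to a gene.

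Filtered library tags ranged from 7362169 in M-phase KLF5 to 16813394 in M-phase HNF4A. The 3 factor lists were 2.80 to 6.40 times longer in S phase than in M phase, and the RAD21 and CTCF lists 1.17 to 1.18 times. No M-phase HNF4A peak had a false discovery rate (FDR, the authors' estimate) under 5%, against all 15437 in S phase. The M-phase KLF5 list has 2118 peaks, a number that the labels place with the rabbit IgG control while placing none with KLF5, so M-phase factor counts are also given without KLF5. H3, the marker of bulk chromatin, had 0 peaks in the windows in either phase.

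HOXA carried the largest number of S-phase factor peaks, while the S-phase RAD21 and CTCF peaks together were spread about evenly over the 4 clusters. In S phase HOXA held 38 factor peaks, HOXB 25, HOXC 11 and HOXD 7, whereas RAD21 and CTCF together had 17, 17, 18 and 17. HNF4A had 13, 11, 4 and 2 peaks in HOXA, HOXB, HOXC and HOXD. KLF5 had 11, 4, 3 and 1. MYC had 14, 10, 4 and 4. All 3 factors thus had their highest number in HOXA and none had a higher number in HOXC than in HOXB. RAD21, with 10, 9, 9 and 7 peaks, was also highest in HOXA and lowest in HOXD, over a narrower range. By number of all listed peaks CTCF ran the other way, with 7 in HOXA, 8 in HOXB, 9 in HOXC and 10 in HOXD. This CTCF order did not hold among the 21 of 34 peaks with an FDR under 5%, or the 20 with a score of at least 100. In both of these sets HOXB had more CTCF peaks than HOXC. These orders are of counts, and the HOXB window, of 220001 bp, is the longest. Per 100000 bp CTCF had 5.00, 3.64, 6.00 and 7.14 peaks and RAD21 7.14, 4.09, 6.00 and 5.00, so both were lowest in HOXB. By density KLF5 was higher in HOXC (2.00) than in HOXB (1.82).

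Per 100000 bp the factors had 27.1 peaks in HOXA, 11.4 in HOXB, 7.33 in HOXC and 5.00 in HOXD. These densities were 22.4, 9.38, 6.05 and 4.13 times that of the lists over the genome, and 21.1, 4.75, 4.52 and 4.71 times those of the chromosome each cluster lies on. As background, the chromosomes outside the windows were divided into bins of a cluster's length: 0% of 21556 bins held as many factor peaks as HOXA, and the fullest held 33. For HOXB the share of bins was 0.204%, for HOXC 2.03% and for HOXD 5.92%. The bins were not placed around groups of peaks as the windows are placed around genes. RAD21 and CTCF had 12.1, 7.73, 12.0 and 12.1 peaks per 100000 bp, and the share of bins with as many was 0.116%, 1.01%, 0.0646% and 0.116%. The clusters therefore resembled each other in RAD21 and CTCF density, and HOXB was lowest, while factor density differed more than 5-fold between HOXA and HOXD.

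**Figure D1:**
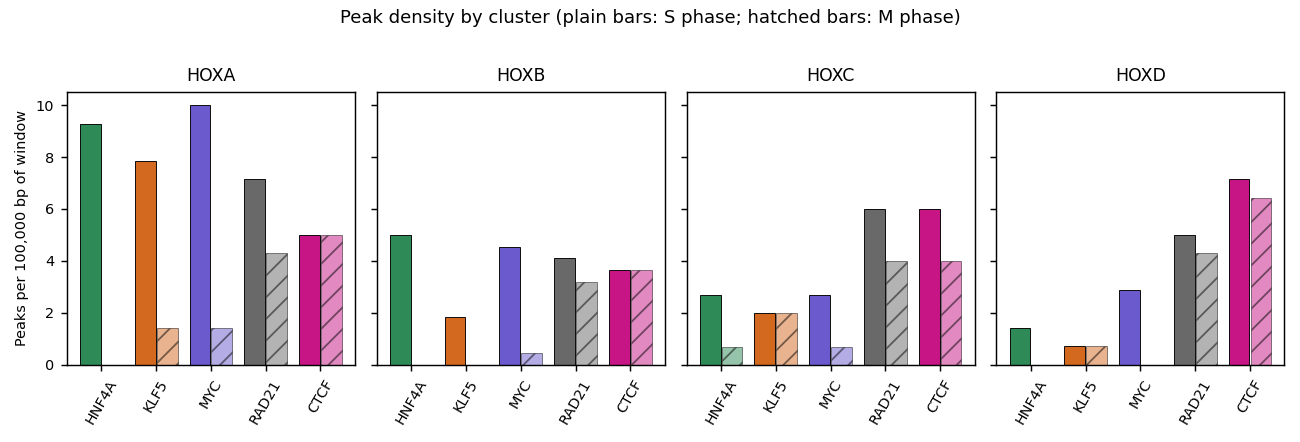
Peaks per 100000 bp of window (vertical axis) for each protein in each cluster, S phase in plain bars and M phase in hatched bars, 1 library per bar. HOXA has the tallest S-phase bars for the 3 factors, and CTCF stands highest in HOXD, at 7.14.

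HOXA differed from the other clusters in the length of its peaks as well as their number. HOXA peaks in S phase had a median width of 3383 bp with HNF4A, 3911 bp with KLF5 and 2562.5 bp with MYC, where the whole lists had medians of 1149, 1330 and 1354 bp. The widest S-phase peak in the entire list lay in HOXA for HNF4A (7595 bp), KLF5 (7407 bp), MYC (8043 bp) and CTCF (6826 bp). For RAD21 the widest HOXA peak was 2110 bp, against 3847 bp for the widest in its list. Of the 10 widest S-phase peaks of each factor, HOXA held 3 for HNF4A, 3 for KLF5 and 5 for MYC. The 99th percentile of width was reached by 7 of 13 HNF4A peaks in HOXA (list 1.00%), 6 of 11 KLF5 peaks (1.03%) and 6 of 14 MYC peaks (1.00%). In HOXB, HOXC and HOXD 0 factor peaks reached it, and the HOXD factor peaks, at 735 to 1544 bp, were near or below the list medians except for 2 of MYC.

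These long HOXA peaks were rich in tags and modest in fold enrichment, which is the authors' ratio of tags to local background. The median HOXA fold of 5.35 with HNF4A, 4.71 with KLF5 and 5.61 with MYC lay below the list medians of 9.63, 8.34 and 8.77. Tags per 1000 bp of peak were above the list medians: 35.0 against 26.0 for HNF4A, 25.3 against 20.6 for KLF5 and 27.8 against 21.6 for MYC. The MYC peak at chr7:27169231-27177261 had 351 tags, the highest count in the whole S-phase MYC list, at 10.49-fold. HNF4A at chr7:27169273-27176867 had 269 tags and 4.81-fold, and KLF5 at chr7:27169575-27176981 had 233 tags and 7.59-fold. These 3 peaks cover nearly the same stretch.

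Factor peaks in HOXA merged into long shared tracts. In S phase 46.8% of the HOXA window lay in a peak of at least 1 factor and 25.0% lay in peaks of all 3, against 1.21% and 0.0998% of the genome. The corresponding shares were 13.0% and 2.19% in HOXB, 8.17% and 0.877% in HOXC, and 4.51% and 0% in HOXD. The longest run of touching factor peaks was 16133 bp, at chr7:27161129-27177261, and the longest in HOXB, HOXC and HOXD were 3394, 2689 and 1544 bp. The run held S-phase RAD21 peaks with summits at chr7:27166044, chr7:27167208, chr7:27171509 and chr7:27175238, and 1 CTCF peak, chr7:27161707-27168532.

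**Figure D2:**
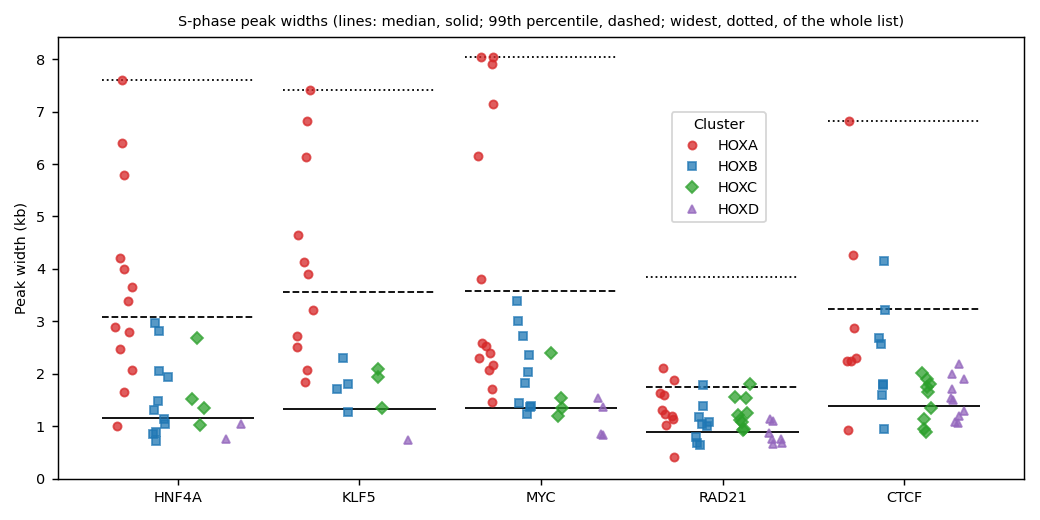
Width of every S-phase peak in the windows (vertical axis, kb) by protein, coloured by cluster, with the median, 99th percentile and widest peak of each whole list as lines. HOXA peaks reach the widest line for HNF4A, KLF5, MYC and CTCF, and RAD21 peaks stay at or below 2110 bp.

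Position along the clusters was read in 3 equal parts of each window, from the low-numbered to the high-numbered HOX genes. In HOXA the S-phase factor peaks numbered 6, 15 and 17 from the low-numbered to the high-numbered part, and RAD21 and CTCF peaks 4, 7 and 6. The HOXA factor peaks were thus fewest beside the low-numbered genes, where 23166 bp, chr7:27103845-27127010, held no peak of the 5 proteins. In HOXB the middle part held most, with 14 of 25 factor peaks and 8 of 17 RAD21 and CTCF peaks, and no factor peak lay in the 69865 bp of chr17:44080642-44150506. HOXC was also fullest in the middle, with 7 of 11 factor peaks and 11 of 18 RAD21 and CTCF peaks.

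HOXD had the most uneven RAD21 and CTCF pattern. Its 17 S-phase peaks of these proteins divided into 0 in the low-numbered part, 6 in the middle and 11 in the part with HOXD13. No S-phase RAD21 or CTCF peak lay in the last 65358 bp, from chr2:176714643 to the end of the window on the HOXD1 side. On the other side CTCF summits followed each other at a median spacing of 6940 bp (2200 to 9893 bp), against 17616.5 bp in HOXA, 24359 bp in HOXB and 9106 bp in HOXC. The last of them, at chr2:176712936-176714642, had 130 tags and 55.62-fold enrichment, the highest CTCF fold in any of the 4 clusters, and a RAD21 peak of 59 tags and 23.47-fold over it. In M phase 1 CTCF peak of 16 tags was listed beyond it, at chr2:176760756-176761490, overlapping an S-phase MYC peak.

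**Figure D3:**
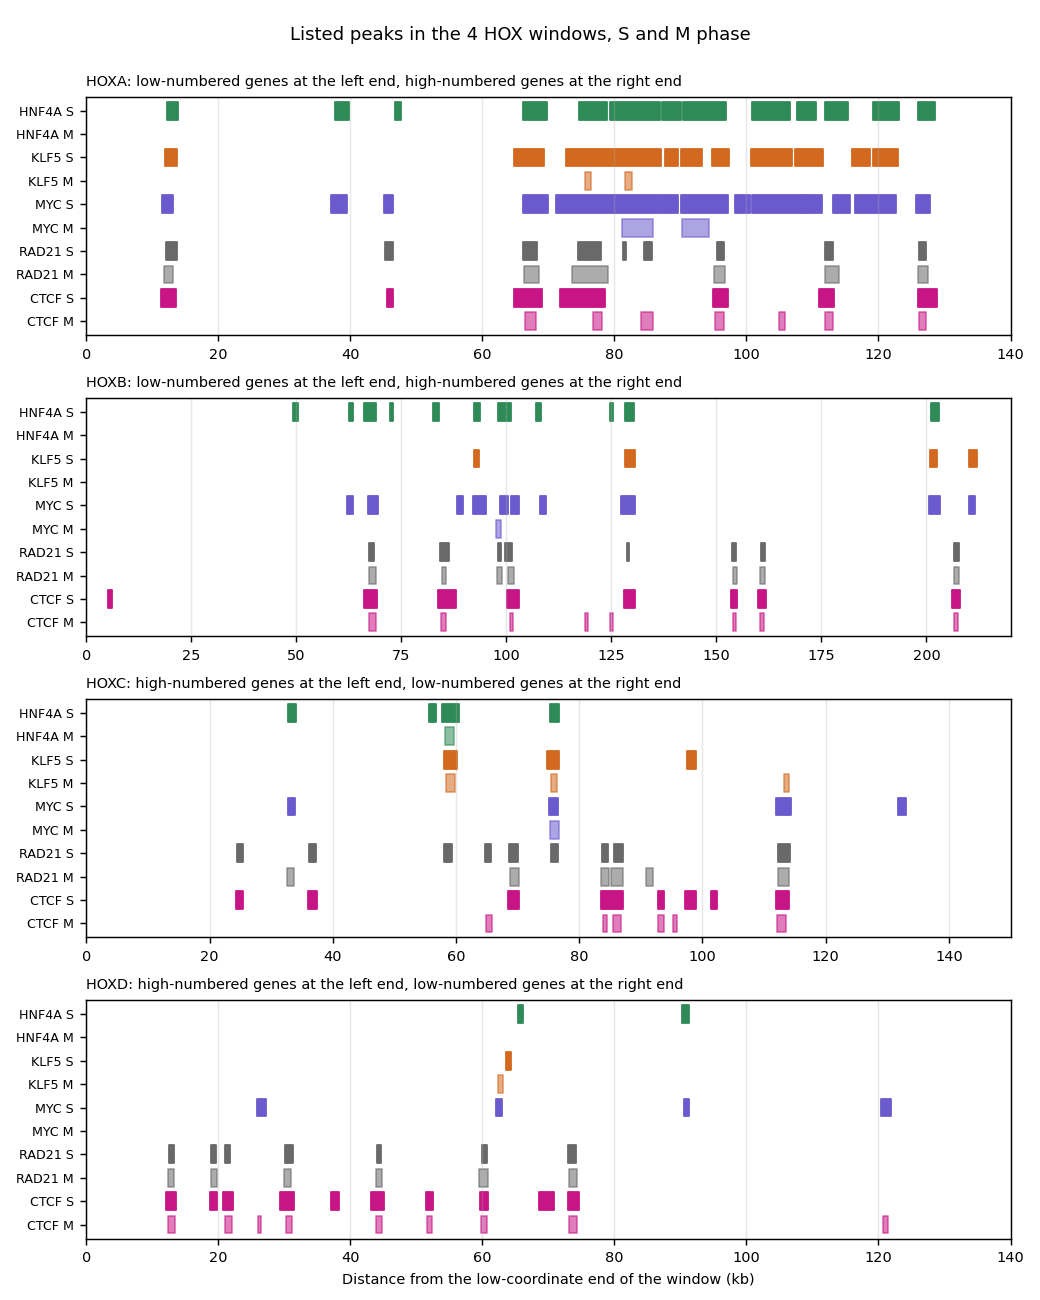
Each listed peak drawn to scale along its window (horizontal axis, kb from the low-coordinate end), by protein and phase, with the gene order at the ends named above each panel. Factor peaks fill most of the right side of the HOXA panel, while the HOXD panel has RAD21 and CTCF peaks along its HOXD13 side and none in S phase over its last 65358 bp.

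RAD21 and CTCF met factor peaks in every case in HOXA and in none in HOXD. In S phase 10 of 10 HOXA RAD21 peaks overlapped a factor peak by at least 1 bp (exact interval 69.2% to 100%), against 17.4% of the S-phase RAD21 list. The counts were 4 of 9 in HOXB, 3 of 9 in HOXC and 0 of 7 in HOXD (0% to 41%). For CTCF they were 7 of 7 (59.0% to 100%), 4 of 8, 2 of 9 and 0 of 10 (0% to 30.8%), against 15.0% of the list. Measured against the rest of the list, HOXA was higher by 82.6 percentage points for RAD21 (54.9 to 83.1) and by 85.1 for CTCF (49.6 to 85.5). HOXB was higher by 27.1 points for RAD21 (1.52 to 56) and 35.1 for CTCF (6.57 to 63.5). For HOXC and HOXD the intervals of the difference included 0.

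Overlap was easier to reach in HOXA, where factor peaks cover 46.8% of the window, and its part in these shares was not tested. When a meeting required summits within 200 bp of each other, HOXA had 3 of 10 RAD21 peaks (list 9.93%) and 3 of 7 CTCF peaks (7.27%) at a factor. HOXB had 1 of 9 and 0 of 8, HOXC 1 of 9 and 0 of 9, and HOXD 0 of 7 and 0 of 10. The median distance from a HOXA CTCF summit to the nearest factor summit was 230 bp, and it was 2612.5 bp in HOXB, 4956 bp in HOXC, 7484.5 bp in HOXD and 27290 bp in the rest of the list. For RAD21 the medians were 310.5, 1350, 6201 and 7174 bp, against 28180 bp.

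**Figure D4:**
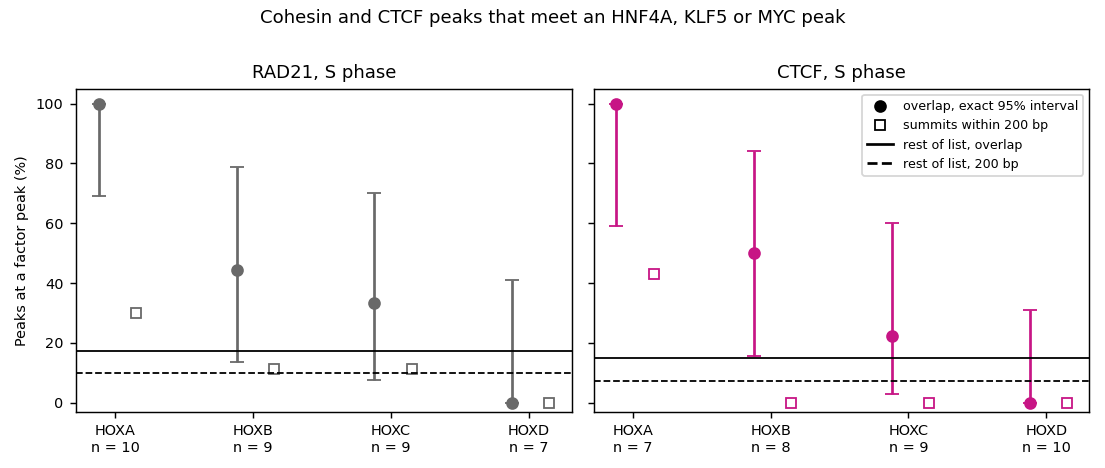
Share of S-phase RAD21 peaks (left) and CTCF peaks (right) that met a factor peak (vertical axis, %) in each cluster, by overlap (dots with exact 95% intervals) and by summits within 200 bp (squares), with the rest of the list as lines. HOXA stands at 100% by overlap for both proteins and at 30.0% and 42.9% by summit, and HOXD at 0%.

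Seen from the factor side, 22 of 38 HOXA factor peaks overlapped a CTCF or RAD21 peak (57.9%, 40.8% to 73.7%), against 31.2% of the S-phase factor lists. The counts were 9 of 25 in HOXB, 7 of 11 in HOXC and 0 of 7 in HOXD. HOXA was 26.7 points above the rest (11.0 to 41), HOXC 32.4 above (4.18 to 53.6) and HOXB 4.80 above (-11.0 to 24.3). In HOXC 6 of 11 factor peaks were at RAD21 (23.4% to 83.3%; 22.9% of the lists) and 2 of 11 at CTCF (2.28% to 51.8%; 20.8%), intervals that overlap. The 6 lay at 3 RAD21 peaks. All these intervals treat factor peaks of the same place as independent. Summits gave another picture: of the HOXA factor summits 2 of 13 for HNF4A (10.8% of the list), 0 of 11 for KLF5 (17.6%) and 2 of 14 for MYC (18.1%) lay within 200 bp of a CTCF or RAD21 summit. By that rule the HOXA share was 10.5%, against 14.7% of the rest. The exact interval for 4 of 38, 2.94% to 24.8%, includes 14.7%. The higher HOXA share by overlap was thus not seen by summits, and a lower one was not shown.

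RAD21 and CTCF met each other at most of their HOX peaks, in shares whose intervals include those of the lists. In S phase 29 of 35 RAD21 peaks overlapped a CTCF peak (82.9%, 66.4% to 93.4%; list 76.2%), and in M phase 19 of 25 did (76.0%, 54.9% to 90.6%; list 71.4%). All 7 HOXD RAD21 peaks in S phase lay at CTCF, and in HOXC 6 of 9 did. Summits of the overlapping S-phase peaks were 76 bp apart in the median, against 48 bp in the rest of the list.

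Sites, meaning runs of overlapping peaks of the 5 proteins in 1 phase, were formed from these same peaks. Long and dense peaks join more neighbours, so site counts partly restate width and density. Sites outside the windows were not counted, so no share of the rest stands beside these counts. In S phase 6 of 59 sites held all 5 proteins, of which 5 were in HOXA and 1 in HOXB. The HOXA site at chr7:27161129-27177261 had 11 peaks and 1798 tags, that at chr7:27190738-27205734 had 10 peaks and 1200 tags, and that at chr7:27177277-27187298 had 9 peaks and 937 tags. The HOXB site, chr17:44077248-44080641, had 282 tags, with MYC at 14.36-fold, KLF5 at 12.06-fold and HNF4A at 10.35-fold, and none of its proteins was listed there in M phase. HOXC had 1 site of 4 proteins, chr12:52674767-52676782, and 2 of 3. HOXD had none with more than 2 proteins, and 7 of its 16 sites were RAD21 and CTCF alone, against 0 of 11 in HOXA.

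Outside HOXA no factor peak reached the 99th percentile of width, and several had a higher fold than any in the long HOXA tracts. HNF4A at chr12:52657764-52660452 in HOXC had 180 tags and 31.03-fold, with KLF5 (63 tags, 11.61-fold) and a weaker RAD21 peak (26 tags, 6.26-fold) at the same place. The strongest HNF4A peak by fold in HOXA, chr7:27127710-27129791, had 120 tags and 20.68-fold and stood apart from the long tracts with 1 MYC peak of 52 tags and 7.04-fold. The next HNF4A folds in HOXA were 10.73 at chr7:27216021-27218499 (133 tags) and 8.58 at chr7:27156090-27159746 (201 tags), both over RAD21 and CTCF peaks. For KLF5 the highest HOXA fold was 7.82, at chr7:27101872-27103715 (56 tags), followed by the 7.59-fold peak of the longest run and 5.63 at chr7:27190738-27196870 (162 tags). For MYC the 10.49-fold peak of that run came first, and after the one beside the strongest HNF4A peak came chr7:27156075-27159881 (146 tags, 6.71-fold). CTCF at chr12:52711985-52714008 in HOXC had 44.22-fold, with RAD21 at 34.04-fold in S phase and 52.29-fold in M phase. In HOXB the highest RAD21 fold was 39.83 at chr17:44103734-44104738, with CTCF at 16.42-fold and no factor peak. The highest CTCF fold of HOXB, 31.11, was at chr17:44156171-44157958 on the HOXB13 side, also without a factor peak. In S phase the highest HOXA folds were below those of the other clusters for both boundary proteins, at 20.67 for CTCF at chr7:27161707-27168532 and 14 for RAD21 at chr7:27201925-27203163, both over factor peaks. In M phase the highest RAD21 folds were 23.39 in HOXA (chr7:27201853-27203970), 27.28 in HOXB (chr17:44050306-44051783) and 22.86 in HOXD (chr2:176699496-176700810), so HOXA was not the lowest there. The highest M-phase CTCF folds were 16.46 in HOXA (chr7:27156376-27158088), 27.41 in HOXB (chr17:44103945-44104644), 26.33 in HOXC (chr12:52712128-52713539) and 23.35 in HOXD (chr2:176699721-176700726). The highest HOXD factor folds were 16.94 for HNF4A at chr2:176730254-176731304, 13.86 for MYC at the same place and 13.79 for MYC at chr2:176665772-176667146.

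In HOXB the factor peaks formed 2 groups. The first, of 20 peaks, reached from chr17:43999257 to chr17:44080641 over the low-numbered and middle parts, and the remaining 5 lay beyond the empty stretch, on the HOXB13 side. There all 3 factors met at chr17:44150507-44153236, with MYC at 79 tags and 10.07-fold, HNF4A at 49 tags and 7.66-fold and KLF5 at 31 tags and 6.54-fold. KLF5 and MYC met again at chr17:44160095-44161903, with 30 and 20 tags. No RAD21 or CTCF peak overlapped either place, though the CTCF peak of highest HOXB fold lay between them. KLF5 had 2 other HOXB peaks, both with HNF4A and MYC over them: chr17:44042228-44043509 (28 tags, 8.85-fold) and chr17:44078181-44080488 (70 tags, 12.06-fold). KLF5 thus had no HOXB peak without MYC, whereas 4 of the 11 HNF4A peaks had neither KLF5 nor MYC. After the site of all 5 proteins, the HNF4A peaks of highest fold in HOXB were chr17:44042307-44043611 (31 tags, 8.93-fold) and chr17:43999257-44000305 (28 tags, 8.76-fold).

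MYC had 10 HOXB peaks, of which 8 overlapped another factor. The remaining 2 were chr17:44038305-44039756 (25 tags, 5.14-fold), which stood alone, and chr17:44051054-44053094 (33 tags, 5.49-fold), which lay over RAD21 and CTCF. With HNF4A MYC met at chr17:44012122-44013364 (21 tags), chr17:44017138-44019491 (51 tags, 3.6-fold), chr17:44048554-44050385 (32 tags, 5.76-fold) and chr17:44057972-44059351 (37 tags, 9.59-fold), and at chr17:44042115-44045118 (66 tags, 6.88-fold) with KLF5 as well. HOXB also had 2 sites of 4 proteins, HNF4A, MYC, RAD21 and CTCF: chr17:44047957-44053094 with 312 tags and chr17:44016069-44019491 with 299 tags. At both sites RAD21 and CTCF were listed in M phase, and MYC was listed at the first.

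HOXC and HOXD had few factor peaks, and each can be named. In HOXC the 3 factors met once, at chr12:52674767-52676782, where KLF5 had 58 tags and 10.38-fold, MYC 43 tags and 9.76-fold and HNF4A 42 tags and 7.88-fold, over a RAD21 peak and no CTCF peak. HNF4A also stood alone at chr12:52655633-52656665 (37 tags, 12.26-fold) and met MYC at chr12:52632681-52634099, with 26 and 23 tags. MYC lay over the strongest HOXC boundary peak, at chr12:52711897-52714296 (52 tags, 7.84-fold), and alone at chr12:52731711-52733061 (24 tags). KLF5 at chr12:52697519-52698869 (31 tags, 8.11-fold) overlapped CTCF without RAD21. In HOXD 3 weak peaks of 3 different factors followed each other without overlap: MYC at chr2:176702116-176702973 (18 tags), KLF5 at chr2:176703577-176704311 (13 tags) and HNF4A at chr2:176705323-176706077 (14 tags). The MYC peak nearest the HOXD1 end was chr2:176760405-176761948 (27 tags, 7.14-fold).

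In M phase almost all factor peaks of the HOX clusters were missing from the lists and most RAD21 and CTCF peaks were still there. The 3 factors together had 81 peaks listed for S phase and 11 for M phase (5 without KLF5), while RAD21 and CTCF had 69 and 55. HNF4A went from 30 to 1, KLF5 from 19 to 6 and MYC from 32 to 4, and RAD21 from 35 to 25 and CTCF from 34 to 30. Filtered tags in M phase were 1.38, 0.712 and 1.65 times those in S phase for HNF4A, KLF5 and MYC, and 2.19 and 1.89 times for RAD21 and CTCF, and the part of depth in these counts was not tested.

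The share of S-phase peaks with an overlapping M-phase peak of the same protein, called kept, did not differ from that of the list beyond counting error for any of the 5 proteins. It was 1 of 30 for HNF4A (3.33%, 0.0844% to 17.2%; list 12.3%), 4 of 19 for KLF5 (21.1%, 6.05% to 45.6%; list 11.4%) and 4 of 32 for MYC (12.5%, 3.51% to 29.0%; list 12.6%). It was 25 of 35 for RAD21 (71.4%, 53.7% to 85.4%; list 69.7%) and 22 of 34 for CTCF (64.7%, 46.5% to 80.3%; list 69.4%). For each protein the interval of the difference from the rest of its list included 0. The largest point difference for a factor was that of KLF5, 9.68 points above (-2.89 to 32.0), and HNF4A was 9.0 points below, with an interval from -11.8 to 4.35.

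**Figure D5:**
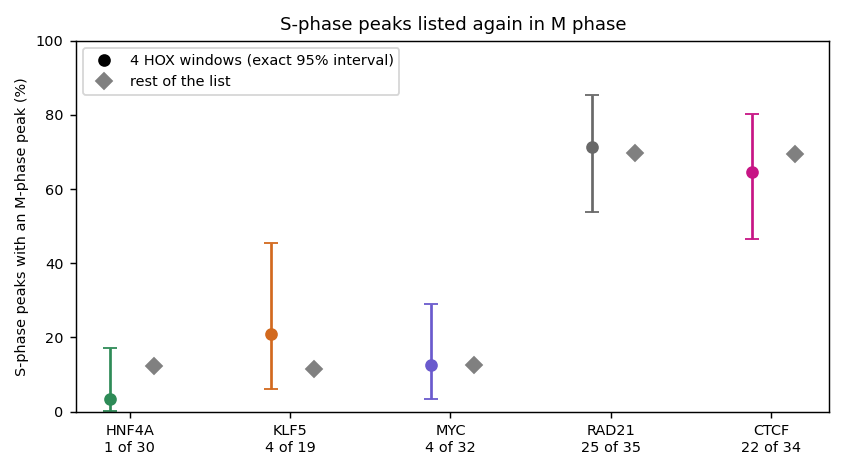
Share of S-phase peaks with an overlapping M-phase peak of the same protein (vertical axis, %) in the 4 windows (dots, exact 95% intervals) and in the rest of each list (diamonds). RAD21 at 71.4% and CTCF at 64.7% stand above the 3 factors, at 3.33% to 21.1%, in the windows as in the rest of the lists.

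HOXC kept a smaller share of its RAD21 and CTCF peaks than the rest of the lists, a difference that depended on the score and FDR limits. It kept 8 of 18 RAD21 and CTCF peaks (44.4%, 21.5% to 69.2%; both lists together 69.6%), which was 25.1 points below the rest, with an interval of the difference of -45.0 to -3.28. HOXA kept 12 of 17 (44.0% to 89.7%), HOXB 14 of 17 (56.6% to 96.2%) and HOXD 13 of 17 (50.1% to 93.2%), intervals that overlap that of HOXC, and the difference between clusters was not tested. In HOXC 6 of 9 RAD21 peaks overlapped a CTCF peak, so some places are counted for both proteins. The pooled interval treats them as independent. For RAD21 alone and CTCF alone HOXC kept 4 of 9 each, and the intervals of the difference from the rest, -50.9 to 3.6 and -50.5 to 3.94, included 0. The HOXC peaks were weaker in S phase, with a median score of 99.4 against 148.5 in the rest, and the part of strength in the difference was not tested. Among peaks with a score of at least 100 the HOXC share was 66.7% against 64.3% in the rest, and with an FDR under 5% in both phases it was 46.2% against 46.0%. HOXC also kept 4 of 11 factor peaks (36.4%, 10.9% to 69.2%; the factor lists 12.2%), 24.1 points above the rest (2.92 to 52.4), where HOXA kept 4 of 38, HOXB 1 of 25 and HOXD 0 of 7. Of those 4 HOXC peaks 2 were KLF5, and with an FDR under 5% in both phases 1 remained. The 4 lay at chr12:52657764-52660452 and chr12:52674767-52676782, and the interval treats peaks of the same place as independent.

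The 11 M-phase factor peaks lay at few places. At chr12:52658281-52659688 in HOXC HNF4A had its only M-phase peak of the 4 clusters, with 79 tags and 5.16-fold after 180 tags and 31.03-fold in S phase. KLF5 was listed over it, with 41 tags and 10.01-fold in M phase, its summit 2 bp from the S-phase summit. The S-phase RAD21 peak of this place was not listed in M phase. A second HOXC place, chr12:52675213-52676674, had MYC (39 tags, 6.41-fold) and KLF5 (20 tags, 7.44-fold). In HOXA MYC was listed at chr7:27171212-27175781 (127 tags) and chr7:27180206-27184377 (103 tags), which were the widest but 1 and but 2 peaks of the M-phase MYC list, at 4570 and 4172 bp. KLF5 was listed inside the same tract with 29 tags and at chr7:27165491-27166514 with 19 tags. The remaining peaks were MYC at chr17:44047502-44048722, KLF5 at chr12:52713173-52714007 and KLF5 at chr2:176702376-176703058, with 29, 16 and 10 tags. The last 2 had no S-phase KLF5 peak. None of the 5 HNF4A and MYC peaks had an FDR under 5%, and 2 of the 6 KLF5 peaks did. The FDR was 63.57% for the HNF4A peak and 100% for each MYC peak, including the 2 wide ones in HOXA. In the whole M-phase lists 0 of 2413 HNF4A, 86 of 1974 MYC and 396 of 2118 KLF5 peaks were under 5%.

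Of these 11 peaks 4 overlapped an M-phase CTCF or RAD21 peak (36.4%, 10.9% to 69.2%; list 22.4%). Without KLF5 the count was 2 of 5. Of the 11 summits 0 lay within 200 bp of a CTCF or RAD21 summit. In the whole M-phase lists 10.5% of HNF4A, 8.92% of KLF5 and 13.1% of MYC summits did. With so few peaks the 0 does not show a difference from the lists. From the other side 3 of 25 M-phase RAD21 peaks and 2 of 30 CTCF peaks met a factor, against 4.23% and 3.09% of the lists. In HOXA the count fell from 10 of 10 RAD21 peaks in S phase to 1 of 6 in M phase, alongside the fall from 38 to 4 factor peaks.

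Most kept RAD21 and CTCF peaks had S- and M-phase summits within 100 bp of each other. Pairs were formed where 1 S-phase peak overlapped 1 M-phase peak and neither overlapped another, which leaves out 4 of the 25 kept RAD21 peaks. Over the 21 RAD21 pairs the summits were 27 bp apart in the median (2 to 840 bp; rest of the list 41 bp), and 3 pairs were over 100 bp apart. Over the 22 CTCF pairs the median was 25.5 bp (1 to 86 bp; rest 35 bp). Tags per 1000000 filtered library tags were lower in M phase at all 22 CTCF pairs, with a median M over S ratio of 0.295 (0.124 to 0.608; rest 0.330). At RAD21 the median ratio was 0.768 (0.507 to 1.47; rest 0.744), and 16 of 21 pairs were below 1. By cluster the CTCF ratio was 0.192 in HOXB, 0.240 in HOXA, 0.370 in HOXC and 0.458 in HOXD, and the pairs overlapped in range between all clusters. Peaks also changed width, the median CTCF width going from 1901 bp in S phase to 1020.5 bp in M phase (rest 1476 to 900 bp), and per 1000 bp the CTCF ratio was 0.590. For example, CTCF at chr7:27161707-27168532 held 273 tags in an S-phase peak of 6826 bp, and 64 tags in an M-phase peak of 1277 bp whose summit was 11 bp away. RAD21 at the same place was listed in M phase as 1 peak of 5495 bp and 254 tags, among the 10 widest of its list.

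Some boundary peaks were listed in 1 phase only. In S phase these were 10 RAD21 and 12 CTCF peaks, of which 5 and 5 were in HOXC. In M phase they were 2 RAD21 peaks, both in HOXC, and 8 CTCF peaks, 2 in each cluster. Of M-phase RAD21 peaks 23 of 25 overlapped an S-phase RAD21 peak (92%, rest 82.0%), with a difference interval of -7.01 to 15.8 points. For CTCF it was 22 of 30 (73.3%, rest 82.8%), with -27.2 to 3.05. Of S-phase peaks 71.4% were kept for RAD21 (rest 69.7%) and 64.7% for CTCF (rest 69.4%). Over the 4 clusters these shares did not differ from the rest beyond counting error. The strongest M-phase-only peak by fold was CTCF at chr2:176666064-176666504 in HOXD (18 tags, 16.56-fold), which lay over an S-phase MYC peak of 40 tags. In S phase it was CTCF at chr12:52668431-52670173 in HOXC (62 tags, 14.21-fold), where RAD21 was listed in both phases. The next in S phase was CTCF at chr2:176658745-176659810 in HOXD (15 tags, 13.06-fold), again with RAD21 in both phases. In HOXA the strongest S-phase-only peak was CTCF at chr7:27135488-27136422 (32 tags, 9.41-fold), with RAD21 and MYC over it. In HOXB it was CTCF at chr17:43955240-43956195 (15 tags, 7.55-fold), which stood alone. Those at the M-phase end were CTCF at chr7:27173998-27175763 (62 tags, 7.57-fold) inside the longest HOXA run, chr17:44068652-44069465 (22 tags, 10.15-fold) in HOXB and chr12:52664926-52665778 (28 tags, 8.90-fold) in HOXC. The 8 CTCF peaks of M phase alone had an FDR of 10.88% to 12.11%, and most of the M-phase CTCF list, all but 8917 of its 24391 peaks, was also not under 5%. The remaining 4 of them were chr7:27194964-27195845 (28 tags, 7.56-fold), chr17:44074629-44075306 (19 tags, 7.01-fold), chr12:52695265-52695933 (15 tags, 8.77-fold) and chr2:176760756-176761490 (16 tags, 9.14-fold). The next S-phase-only peaks by fold were CTCF at chr7:27101338-27103588 (55 tags, 6.05-fold) at a site of all 5 proteins in HOXA, CTCF at chr17:44078058-44080624 (54 tags, 5.68-fold) at the HOXB site of all 5, CTCF alone at chr12:52701411-52702301 (12 tags, 11.28-fold) and RAD21 at chr2:176660928-176661802 (17 tags, 8.73-fold). Most S-phase-only CTCF peaks were also not under an FDR of 5%. Their FDR ran from 0.28% at chr12:52668431-52670173 to 13.33% at chr17:43955240-43956195. It was 12.59% at chr12:52701411-52702301 and 12.22% at chr7:27101338-27103588. In the whole S-phase CTCF list 20190 of 28474 peaks were under 5%.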

How the data were processed

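The peak lists hold regions where immunoprecipitated DNA was enriched over IgG, 1 list per target and phase, in early S-phase and M-phase LoVo cells. Base calling used CASAVA 1.4, reads were aligned with BWA to hg18 and peaks were called with MACS 1.4, per the submitters' processing notes. Per the file headers, MACS 1.4.0rc2 kept at most 1 tag per position and used an effective genome of 2750000000 bp, a model fold of 2 to 6, a band width of 300 bp and a p limit of 1e-05. Each peak's tags are a count of aligned tags made by the authors without scaling. The deposited score is the authors' transformed MACS p (-10 multiplied by its log10). Fold enrichment, the authors' ratio of tags to a local background, and the FDR, the authors' estimate in percent, were used as deposited. Because p sets the list, a deeper library can list weaker peaks.

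Each library was called alone, from alignment files in a folder named merged per the file headers, which do not say what was merged. There is no replicate, so no test was run. Peaks were intersected with the windows, with each other (1 bp or more) and between phases, using pandas 2.3.3, numpy 2.4.6 and scipy 1.17.1 under Python 3.11.15, and plotted with matplotlib 3.10.9. Intervals at 95% are Clopper-Pearson (exact) on shares and Newcombe on differences, for counting error only. Peaks of 1 library share their source and are not replicates. Tags were scaled to 1000000 filtered tags, and a peak's place along a cluster is that of its summit. The overlap counting was tested on simulated data. Alternatives were another overlap, summit distances of 100 and 200 bp, an edge within 1000 bp, a score of at least 100, an FDR under 5%, other window edges, and other tag scaling.

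Peaks named are the CTCF and RAD21 peaks of highest fold in each cluster and phase, factor peaks where a cluster holds at most 10 of a factor and otherwise the 3 of highest fold, S-phase sites of 3 or more proteins (at most 3 per cluster), and boundary peaks of 1 phase only (at most 2 per cluster and phase, by fold). Others named, such as the long HOXA peaks, were chosen after their values were seen. The windows, members and lists were chosen with earlier results of these data known. Promoters are from RefSeq tables of GRCh38.p14, were searched for letters known for each protein and were not placed on hg18. The IgG libraries had no peak list here.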

Additional observations from a re-analysis of the deposited data

How the results depend on the processing

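Of 304 alternative values, 225 stayed within 1.5 times or counting error, 73 moved and 6 changed direction against the rest of the list or against 1. A share was counted as changing direction only where its main interval excluded the value of the rest. Other shares that crossed the rest, such as HOXB factor peaks at CTCF or RAD21 by summits, are counted as moved or stayed. The cause was not tested where none is given by the construction. Windows widened by 50000 bp moved none of the 48 values computed, windows narrowed by 10000 bp none of 31, a summit in the window none of 31 and an edge within 1000 bp none of 15. Leaving out peaks at H3 is not counted here: with 0 H3 peaks in the windows it could not change a value. A score of at least 100 or an FDR under 5% lists fewer peaks by construction.

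With a score of at least 100 S phase had 19 HNF4A, 9 KLF5, 20 MYC, 21 RAD21 and 20 CTCF peaks, with 48 for the factors together (10 in HOXB, 7 in HOXC, 3 in HOXD) and 41 for RAD21 and CTCF (10, 11, 9 and 11 from HOXA to HOXD). In M phase KLF5 had 1, MYC 0 and the factors 2 (0 in HOXA, 0 in HOXB, 2 in HOXC, 0 in HOXD), and RAD21 and CTCF had 7 in HOXC. With an FDR under 5% 21 S-phase and 16 M-phase CTCF peaks remained. The rising order of S-phase CTCF counts from HOXA to HOXD held under neither limit. HNF4A then had 0 in M phase, KLF5 2, MYC 0, the factors 2 (1 in HOXA, 0 in HOXB, 1 in HOXC, 0 in HOXD), and RAD21 and CTCF 35 (6 in HOXC, 9 in HOXD). With KLF5 left out, an alternative chosen after seeing the data, the M-phase factor peaks were 5 (2 in HOXA, 2 in HOXC, 0 in HOXD).

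Kept shares with summits within 100 bp were 0% for HNF4A, 0% for MYC and 3.70% for the factors. With 50% of each peak shared they were 38.2% for CTCF and 50.7% for RAD21 and CTCF. With the score minimum they were 0% for MYC, 4.17% for the factors, 90% for CTCF and 85.4% for RAD21 and CTCF. With the FDR limit they were 0% for HNF4A, 0% for MYC, 2.47% for the factors and 9.09% for HOXC factors. The HNF4A value was fixed by the limit, since 0 of 2413 M-phase HNF4A peaks in the whole list were under 5%. For MYC 86 of 1974 were. These shares are given without those of the rest and do not show a trait of HOX peaks. The lower kept share of RAD21 and CTCF in HOXC changed direction in both cases, at 66.7% against 64.3% of the rest with the score minimum and 46.2% against 46.0% with the FDR limit.

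The share of S-phase factor peaks at CTCF or RAD21 was 34.2% in HOXA and 30.9% over the 4 clusters with 50% of each peak shared, and 9.09% in M phase. With summits within 200 bp it was 10.5% in HOXA and 8.64% over the 4 clusters, both below the 14.7% of the rest, 4% in HOXB, 18.2% in HOXC and 0% in M phase. The exact interval of the HOXA share, 4 of 38, was 2.94% to 24.8% and includes 14.7%. In M phase the score minimum gave 0%. RAD21 at CTCF in S phase was 48.6% with 50% shared and 60% with summits within 100 bp. RAD21 at a factor, for which alternatives were chosen after seeing the data, was 30% in HOXA and 11.1% in HOXB with summits within 200 bp, and 40% and 0% with 50% shared. CTCF at a factor by summits was 42.9% in HOXA, 0% in HOXB, below the 7.27% of the rest, and 0% in HOXC. Where no share of the rest is given here, the value does not show a trait of HOX peaks. Such a value cannot be set against a list share by overlap, since the rule differs.

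Per 1000 bp of width the M over S ratio was 0.607 for HNF4A, 0.590 for CTCF and 1.17 for KLF5, now above 1, and with total tags it was 0.217 for KLF5. Edge to edge, the median distance from a factor peak to CTCF or RAD21 was 932 bp for HNF4A, 0 bp for KLF5 and 787 bp for MYC. Position along the clusters was computed in 1 way. Limits are the single library per target and phase, M-phase lists called at other depths than their S-phase partners, and counts of 11 or fewer factor peaks in HOXC, HOXD and M phase, whose shares have wide intervals.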

Other observations

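The 50000 bp on either side of each window were also read, by peak summits. Beyond the HOXA13 side of HOXA there were 8 S-phase factor summits and 3 of RAD21 or CTCF, with 0 and 2 in M phase. Beyond the HOXB1 side of HOXB there were 1 and 3 in S phase, with 0 and 2 in M phase. The HOXA2 side of HOXA, the HOXB13 side of HOXB and both sides of HOXC and HOXD had 0 summits of the 5 proteins in either phase.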
